A study of Homo sapiens with 12 samples.

Results

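The osmolyte and ion balance genes described here are 9 genes: AKR1B1, SLC5A3, SLC6A12 and SLC6A6, which make or carry organic osmolytes; NFAT5, HSPA4L, SGK1 and RANBP3L, here grouped as regulators and chaperones; and ATP1B1, a subunit of the sodium pump. They were taken by gene name from the deposited tables, which list 60612 genes for HCCLM3 and 32507 for LX2, and all 9 were found in both tables. They were chosen because of their counts and FPKM in LX2, so their values in LX2, and the differences between the lines, are given as a description without a test.

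The series measured polyadenylated RNA by sequencing in HCCLM3, a human hepatoma line, and in LX2, a human hepatic stellate line, both labelled wild type. Each line was kept in a tumor-on-a-chip either by itself or together with the other line. This gave 4 groups of 3 libraries: HCCLM3 alone, HCCLM3 with LX2, LX2 alone and LX2 with HCCLM3. The labels give neither the duration of culture nor how the lines were separated before RNA was extracted. They also do not say whether the 3 libraries of a group are separate cultures, and p-values thus reflect only how far these libraries spread. The comparison asks how each line's transcripts differed when the other line was present.

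Cells in a salty or concentrated medium lose water, and they restore their volume by taking up ions and then by gathering small organic solutes, such as sorbitol, inositol, betaine and taurine, which do not disturb proteins as salt does. The transcription factor NFAT5, also called TonEBP, raises the genes that make or import these solutes by binding a tonicity-responsive element near them. The sodium pump works in the other direction on ions, moving sodium out of the cell and potassium in, and kinases such as SGK1 adjust sodium channels and carriers.

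Total counts lay between 61836616 and 77712308 per library. In LX2 alone, COL1A2, COL6A3 and SPARC, markers of collagen-producing stellate cells, were at 0 counts in all 3 libraries. Of the 10 stellate and fibroblast markers, 4 to 5 reached 1 FPKM there, and 4 did when HCCLM3 was present. The summed level of the 10 was 162 to 196 FPKM without HCCLM3 and 165 to 197 FPKM with it. Such a sum can rest on a few genes, so it does not show that the list as a whole was expressed. Of the 10 liver cell markers, 2 to 3 reached 1 FPKM in LX2. Their summed level was 40.7 to 42.3 FPKM in LX2 alone and 34.2 to 35.2 FPKM with HCCLM3. Among these markers, TTR and AFP were at 0 counts in all 6 LX2 libraries. TTR was also at 0 counts in every HCCLM3 library except HCCLM3 alone replicate 3, so it does not separate the lines. In HCCLM3, 2 to 3 of the 10 liver cell markers reached 1 FPKM, with a summed level of 802 to 902 FPKM alone and 505 to 607 FPKM with LX2. The summed level of 10 blood cell markers was 6.80 to 7.49 FPKM in HCCLM3 alone and 90.8 to 124 FPKM in HCCLM3 with LX2, where 6 to 7 of the 10 reached 1 FPKM; in LX2 it was 23.5 to 27.2 FPKM alone and 23.0 to 28.2 FPKM with HCCLM3.

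Sequence just before an annotated start of 4 of the genes is shown first. AKR1B1 and SLC5A3 were taken as known targets of NFAT5, and RANBP3L because it differed most in LX2. HSPA4L was taken as the 1 gene of those with an entry whose windows held the full element. The sequences are from RefSeq on GRCh38.p14, and 6 of the 9 genes matched an entry, while SLC6A12, SLC6A6 and NFAT5 did not. Each is the part of the 250 bases before an annotated start that no annotated exon covers, written 5′ to 3′ on the gene's strand. Capitals mark matches to the full tonicity element (known as TonE, searched on both strands), to its core TGGAAA, to CCAAT and to TATAAA.
AKR1B1, chr7:134459285-134459489, minus strand: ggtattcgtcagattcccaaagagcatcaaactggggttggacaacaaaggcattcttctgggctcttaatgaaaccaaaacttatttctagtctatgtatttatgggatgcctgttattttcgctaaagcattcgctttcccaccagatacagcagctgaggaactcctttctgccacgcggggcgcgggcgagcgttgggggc
SLC5A3, chr21:34073328-34073522, plus strand: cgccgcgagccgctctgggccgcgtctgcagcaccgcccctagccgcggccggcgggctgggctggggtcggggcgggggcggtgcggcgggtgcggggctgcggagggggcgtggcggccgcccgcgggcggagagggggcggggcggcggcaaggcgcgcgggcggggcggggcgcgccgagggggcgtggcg
RANBP3L, chr5:36301903-36302075, minus strand: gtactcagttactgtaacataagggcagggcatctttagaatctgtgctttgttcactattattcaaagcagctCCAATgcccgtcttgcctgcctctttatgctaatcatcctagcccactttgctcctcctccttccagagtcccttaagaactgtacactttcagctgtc
HSPA4L, chr4:127783273-127783522, plus strand: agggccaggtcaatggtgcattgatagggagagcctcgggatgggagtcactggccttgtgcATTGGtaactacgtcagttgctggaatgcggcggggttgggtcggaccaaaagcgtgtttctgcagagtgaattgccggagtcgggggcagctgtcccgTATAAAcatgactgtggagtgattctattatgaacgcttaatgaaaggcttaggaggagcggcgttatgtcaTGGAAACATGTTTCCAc
In the printed HSPA4L stretch the full element was matched on both strands within bases 2 to 17 before that annotated start. The 2 full matches, at bases 7 to 17 and 2 to 12, overlap. The core occurs there once on each strand, at bases 12 to 17 and 2 to 7, without overlap. This stretch lies inside the deposited span of HSPA4L, 127781821 to 127840733. The printed RANBP3L stretch likewise lies inside the deposited span of RANBP3L, 36246913 to 36302114. The HSPA4L window nearest the deposited start, 127781546-127781795, held no marked match. The window at 127782072-127782321 held the core but not the full element. Among all 35116 promoter windows of that length, 4.16% held the full element, 18.01% the core, 32.01% CCAAT and 10.7% TATAAA. The stretches of AKR1B1, SLC5A3 and RANBP3L held no match to the element or its core. Outside the printed parts, another AKR1B1 window, 134459101-134459350, held CCAAT, and the RANBP3L window held TATAAA. The known elements of AKR1B1 and SLC5A3 lie farther upstream, outside these windows. The GC content of the printed stretches was 48.8% for AKR1B1, 88.2% for SLC5A3, 45.7% for RANBP3L and 52.4% for HSPA4L.

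In LX2, 5 of the 9 genes were lower with HCCLM3 in every library than in any library of LX2 alone, 2 were higher in the same sense, and SLC6A6 and NFAT5 overlapped between the groups. Among all 19671 genes tested in LX2, 48% did not overlap between the groups, 24% lower and 24% higher, and since the genes were picked on this contrast nothing is read from their count. A log2 fold change of -3 or lower was seen in 0.473% of all genes tested, and 4 of the 9 genes lay there: AKR1B1, SLC5A3, SLC6A12 and RANBP3L. The median log2 fold change over all genes tested was 0.01. So 3 of the 4 osmolyte genes, and RANBP3L, lay among the lowest genes, ATP1B1 was lower by less, and SGK1 and, slightly, HSPA4L were higher.

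**Figure D1:**
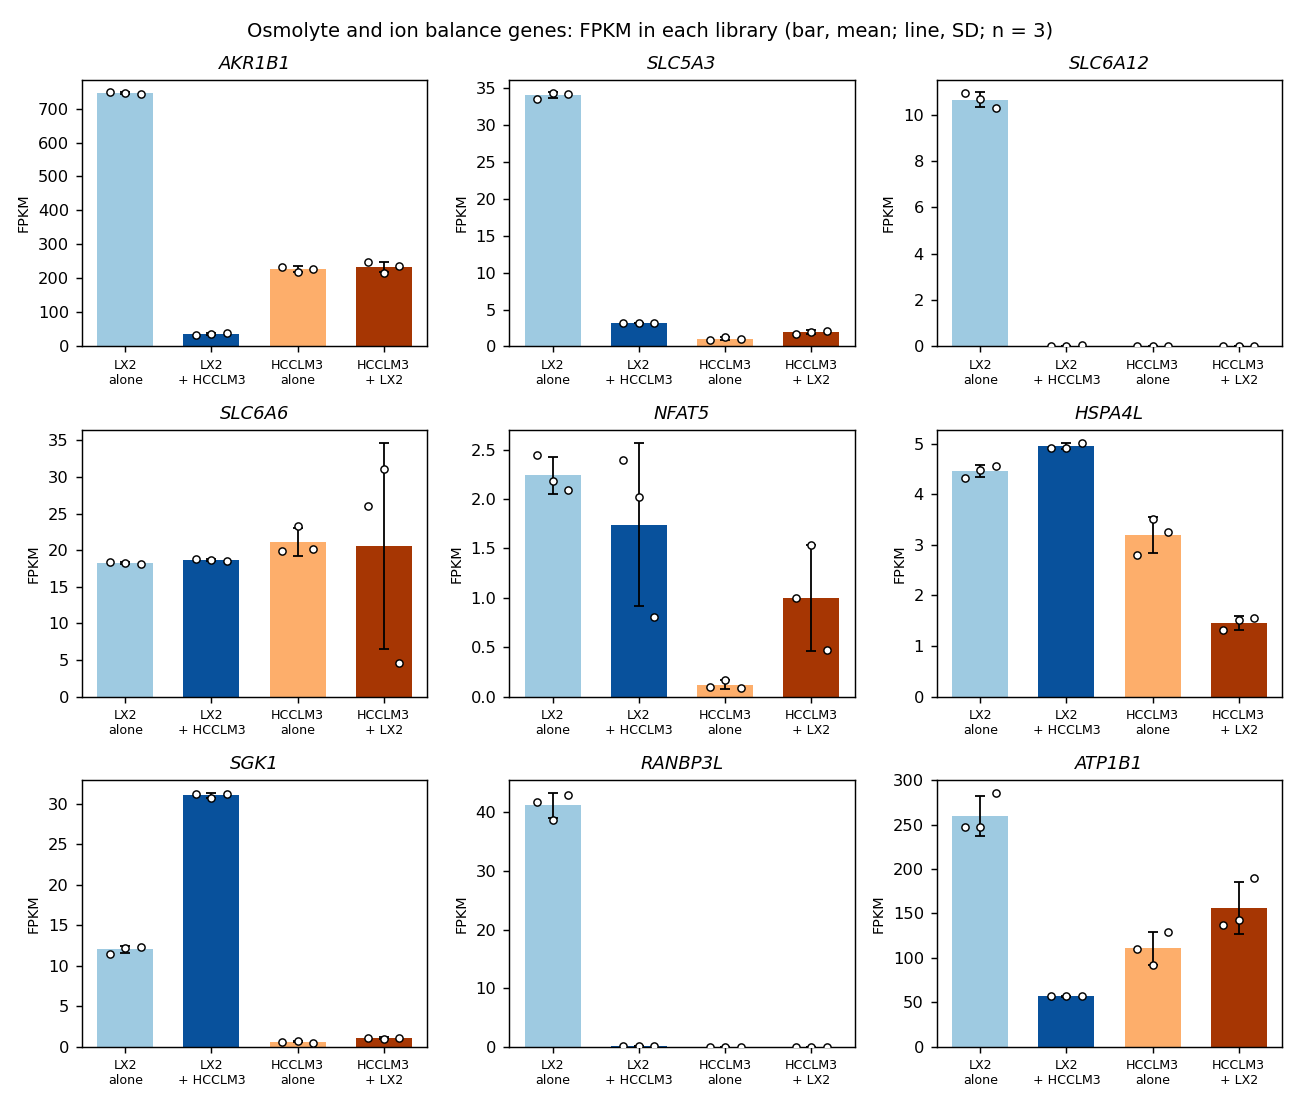
FPKM of the 9 genes by group, on linear axes from 0; bars are means, lines SD and points the 3 libraries. AKR1B1, SLC5A3, SLC6A12, RANBP3L and ATP1B1 sit lower in the 3 libraries of LX2 with HCCLM3 than in LX2 alone; RANBP3L was at 0 counts in all 6 HCCLM3 libraries.

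AKR1B1 (ENSG00000085662, chromosome 7, 134442356 to 134459284, minus strand) encodes aldose reductase, which turns glucose into sorbitol. Its level in LX2 alone was 747, 744 and 743 FPKM, and in LX2 with HCCLM3 it was 33.9, 37.4 and 38.9 FPKM. The groups were far apart and each was tight. Its counts went from 212807, 199888 and 210497 to 9487, 11172 and 11827. The fitted log2 fold change was -4.37 (SE 0.056), so that 4.84% of the level in LX2 alone remained, and AKR1B1 ranked 31 from the lowest of the 19671 genes. In bulk RNA, fewer cells with a transcript and less of it per cell cannot be told apart. By FPKM AKR1B1 ranked 31 from the highest of all genes in LX2 alone and 980 with HCCLM3. AKR1B1 made up 0.322% to 0.326% of all counts in LX2 alone and 0.0147% to 0.0169% with HCCLM3.

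In HCCLM3 no change of AKR1B1 passed the test. Its level was at 235, 219 and 229 FPKM alone and 249, 217 and 236 FPKM with LX2, and the groups overlapped. There the fitted log2 fold change was -0.13 (SE 0.081; adjusted p = 0.313 by Benjamini-Hochberg over all genes tested, edgeR quasi-likelihood test). The change in LX2 minus that in HCCLM3 was -4.21 on the log2 scale (SE 0.11).

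SLC5A3 (ENSG00000198743, chromosome 21, 34073578 to 34106260, plus strand) encodes the sodium and myo-inositol cotransporter, the carrier that brings inositol into the cell. It stood at 33.6, 34.3 and 34.2 FPKM in LX2 alone and at 3.22, 3.23 and 3.18 FPKM with HCCLM3. The 3 values within each group were within a few percent of each other. Counts went from 30241, 29154 and 30662 to 2849, 3056 and 3066, with a log2 fold change of -3.43 (SE 0.027), which is 10.8-fold lower. SLC5A3 ranked 66 from the lowest. In HCCLM3, SLC5A3 was higher with LX2, going from 0.826, 1.25 and 1.02 FPKM alone to 1.64, 1.96 and 2.16 FPKM with LX2. The groups did not overlap, and the rise passed the test (log2 fold change 0.73, SE 0.17; edgeR quasi-likelihood test, adjusted p = 0.0261). The call was lost without HCCLM3 alone replicate 1 (adjusted p = 0.0654) or replicate 3 (0.0776), and without HCCLM3 with LX2 replicate 2 (0.0721) or replicate 3 (0.0917).

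Reads of SLC5A3 cannot be assigned with certainty, because MRPS6, a mitochondrial ribosomal protein gene, lies over it on the same strand. MRPS6 was 34.2 ± 0.864 FPKM in LX2 alone and 7.51 ± 0.417 FPKM with HCCLM3 (SD, n = 3), with a log2 fold change of -2.21 (SE 0.050). In HCCLM3 it was 10.9 ± 0.43 FPKM alone and 11.9 ± 1.05 FPKM with LX2, with a log2 fold change of -0.04. SLC5A3 was also the gene among the 9 for which neither the deposited start nor the deposited end matched the GENCODE 29 annotation. For the other 8 the start or the end matched.

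SLC6A12 (ENSG00000111181, chromosome 12, 190077 to 214090, minus strand) encodes BGT1, which carries betaine and GABA with sodium and chloride. LX2 alone held 10.9, 10.7 and 10.3 FPKM, from 4508, 4145 and 4223 counts. LX2 with HCCLM3 held 0.027, 0.030 and 0.042 FPKM, from 12, 14 and 19 counts. SLC6A12 went from a moderate level to near the limit of detection in all 3 libraries. Its log2 fold change was -8.26 (SE 0.13), 306-fold lower, and it ranked 8 from the lowest. HCCLM3 had 5, 0 and 0 counts alone and 12, 0 and 8 counts with LX2, and the gene was not tested there.

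SLC6A6 (ENSG00000131389, chromosome 3, 14402576 to 14489349, plus strand) encodes TauT, the taurine carrier. Among the 4 osmolyte genes it had the smallest difference in LX2. Its level was 18.4, 18.3 and 18.1 FPKM alone and 18.8, 18.7 and 18.6 FPKM with HCCLM3, so that FPKM was slightly higher with HCCLM3, while on the count scale of the fit the groups overlapped (log2 fold change 0.0039, SE 0.026). In HCCLM3 it was 19.8, 23.3 and 20.1 FPKM alone and 26.1, 31.1 and 4.56 FPKM with LX2. The third library of HCCLM3 with LX2 stood apart for SLC6A6, with 3003 counts against 16947 and 20929 in its partners. The log2 fold change in HCCLM3 was -0.20 (SE 0.59; adjusted p = 0.838, edgeR quasi-likelihood test), and without that library it was 0.27 (adjusted p = 0.184). In that library 0.936% of 11000 genes were likewise more than 2-fold below both partners, and over the 6 HCCLM3 libraries this share ran from 0.691% to 1.15%.

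Added over AKR1B1, SLC5A3, SLC6A12 and SLC6A6, the level was 805 to 810 FPKM in LX2 alone and 56.0 to 60.7 FPKM with HCCLM3. AKR1B1 made up 92.2% of that sum in each library of LX2 alone and 60.6% to 64.1% with HCCLM3. In HCCLM3 the sum was 243 to 256 FPKM alone and 242 to 276 FPKM with LX2. These sums follow AKR1B1, the largest of them per length.

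RANBP3L (ENSG00000164188, chromosome 5, 36246913 to 36302114, minus strand) encodes a RAN-binding protein that acts in export from the nucleus. It stood at 41.7, 38.8 and 43.0 FPKM in LX2 alone, from 15890, 13913 and 16296 counts. With HCCLM3 it stood at 0.096, 0.131 and 0.150 FPKM, from 36, 53 and 61 counts. RANBP3L went from 41.2 ± 2.18 FPKM to 0.126 ± 0.0273 FPKM (SD, n = 3). This gave a log2 fold change of -8.37 (SE 0.15), 330-fold lower, and it ranked 5 from the lowest. All 6 HCCLM3 libraries had 0 counts of RANBP3L, which with a limit of 3 counts allows a level of up to 0.0386 to 0.0457 CPM (counts scaled to the library total).

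**Figure D2:**
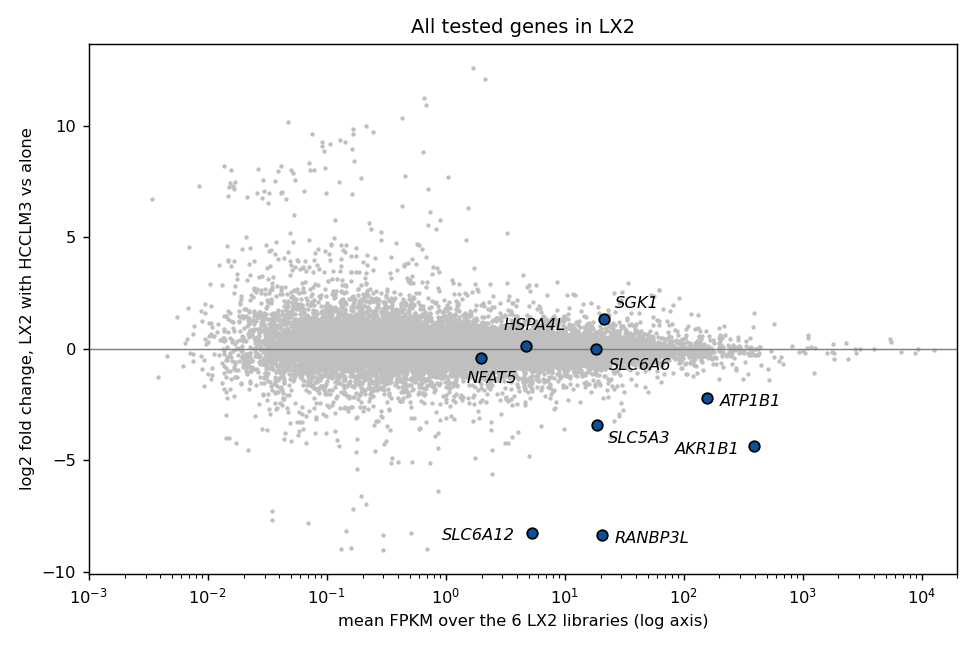
Log2 fold change of all genes tested in LX2 against their mean level, with the 9 genes marked. RANBP3L (-8.37), SLC6A12 (-8.26) and AKR1B1 (-4.37) lie at the lower edge of the cloud, and SGK1 (1.34) lies above its middle.

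NFAT5 (ENSG00000102908, chromosome 16, 69565094 to 69704666, plus strand), the factor behind the tonicity response, is regulated largely after transcription. In LX2 alone it was 2.44, 2.18 and 2.09 FPKM, and with HCCLM3 2.40, 2.02 and 0.809 FPKM. The groups overlapped, and the third library of LX2 with HCCLM3 was the low value. NFAT5 had a log2 fold change of -0.39 (SE 0.37) in LX2, and without that library it was -0.05. In HCCLM3 the transcript was low alone, at 0.0996, 0.173 and 0.0918 FPKM, and higher with LX2, at 0.994, 1.54 and 0.468 FPKM. Counts there rose from 155, 257 and 123 to 1286, 2058 and 614. NFAT5 rose there by a log2 fold change of 2.86 (SE 0.47; edgeR quasi-likelihood test, adjusted p = 0.00781), a 7.26-fold rise, higher in 3 of 3 libraries than in any library of HCCLM3 alone. A second transcript, AC012321, overlaps NFAT5 on the same strand; in HCCLM3 its log2 fold change of 1.06 did not pass the test (adjusted p = 0.541, edgeR). Counts of AC012321 were 398, 402 and 502 when HCCLM3 was alone but 1441, 20 and 1273 beside LX2, and without HCCLM3 with LX2 replicate 2 its log2 fold change was 1.63 (adjusted p = 0.00929). In LX2 AC012321 rose by 0.80 (adjusted p = 0.0214, edgeR). That call was lost without replicate 1 or 2 of either LX2 group (0.0644 to 0.0686), with the replicate block (0.0725) and in the fit over 12 libraries (0.639). Reads of NFAT5 and AC012321 cannot be told apart with certainty.

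HSPA4L (ENSG00000164070, chromosome 4, 127781821 to 127840733, plus strand) encodes a chaperone of the HSP110 family, first described as an osmotic stress protein. In LX2 alone it was 4.32, 4.48 and 4.55 FPKM and with HCCLM3 4.91, 4.92 and 5.02 FPKM. The groups did not overlap, but the step was small (log2 fold change 0.12, SE 0.039). In HCCLM3, HSPA4L fell from 2.80, 3.51 and 3.26 FPKM to 1.31, 1.51 and 1.55 FPKM. The fall passed the test, with a log2 fold change of -1.30 (SE 0.11; edgeR quasi-likelihood test, adjusted p = 0.00103), lower in 3 of 3 libraries.

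SGK1 (ENSG00000118515, chromosome 6, 134169246 to 134318112, minus strand) encodes serum and glucocorticoid regulated kinase, which keeps sodium channels and carriers at the membrane, in part by acting on the ubiquitin ligase NEDD4L. In LX2 it was 11.5, 12.2 and 12.4 FPKM alone and 31.3, 30.7 and 31.2 FPKM with HCCLM3. Its log2 fold change was 1.34 (SE 0.035), 2.53-fold higher, and SGK1 ranked 938 from the highest. In HCCLM3 it was 0.640, 0.653 and 0.521 FPKM alone and 1.13, 0.974 and 1.11 FPKM with LX2. The rise passed the test (log2 fold change 0.65, SE 0.15; edgeR quasi-likelihood test, adjusted p = 0.0238). The call was lost without HCCLM3 alone replicate 1 (0.0507) or 3 (0.0690), and without HCCLM3 with LX2 replicate 1 (0.0792) or 3 (0.0851).

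ATP1B1 (ENSG00000143153, chromosome 1, 169105697 to 169132722, plus strand) encodes the beta 1 subunit of the sodium pump, which brings the catalytic alpha subunit to the membrane. In LX2 alone it was 247, 247 and 286 FPKM, and with HCCLM3 57.1, 56.7 and 56.5 FPKM. Counts went from 55168, 51960 and 63521 to 12503, 13293 and 13488. The log2 fold change was -2.22 (SE 0.061), 4.67-fold lower, and ATP1B1 ranked 181 from the lowest. In HCCLM3 it was 110.4, 92.4 and 129 FPKM alone and 137, 142 and 189 FPKM with LX2. The groups overlapped on the scale of the fit, and the log2 fold change of 0.33 (SE 0.16) did not pass the test (edgeR quasi-likelihood test, adjusted p = 0.199).

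**Figure D3:**
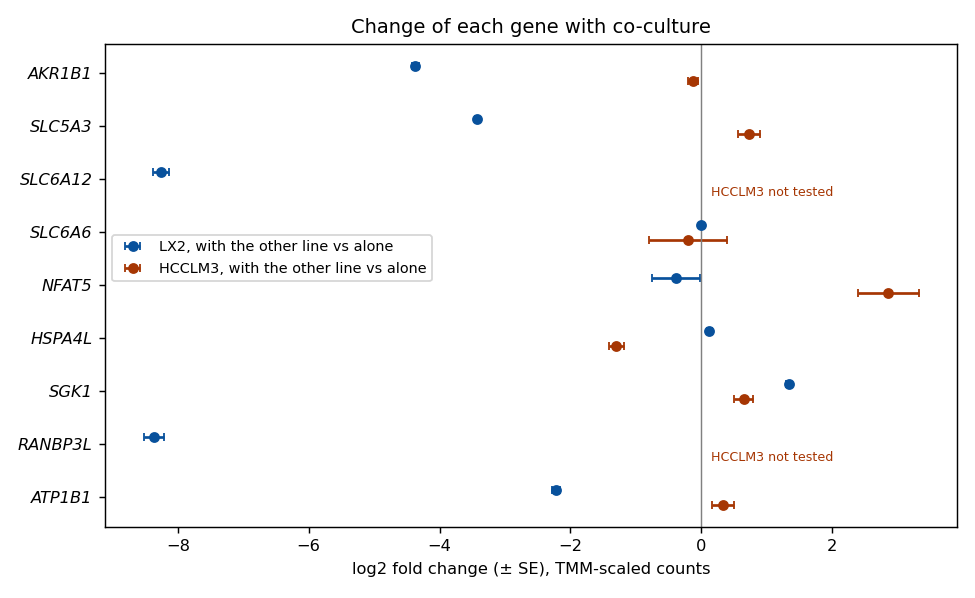
Log2 fold change with co-culture of the 9 genes in LX2 and in HCCLM3, with standard errors. In LX2 the values run from -8.37 for RANBP3L to 1.34 for SGK1, and in HCCLM3 from -1.30 for HSPA4L to 2.86 for NFAT5, where RANBP3L and SLC6A12 were not tested.

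In HCCLM3, 7 of the 9 genes could be tested, since RANBP3L and SLC6A12 had too few counts. SLC5A3, NFAT5 and SGK1 rose, HSPA4L fell, and AKR1B1, SLC6A6 and ATP1B1 did not pass the test. Of all 18045 genes tested in HCCLM3, 21.7% passed the same threshold, an adjusted p below 0.05, with 10.1% up and 11.6% down. The same 4 genes were those whose libraries did not overlap between the groups, which 43.1% of all tested genes did not, 22.1% higher and 21% lower with LX2. When library totals replaced the trimmed mean scaling in HCCLM3, 2977 genes rose and 1039 fell in place of 1829 and 2095, and the median log2 fold change was 0.21 in place of 0.03. The 4 calls among the 9 genes held under that scaling. The part of the blood cell markers' rise in HCCLM3 with LX2 in these results was not tested. Transcripts typical of the partner line reached a median of 0.488% to 0.614% of their level there in LX2 with HCCLM3 (57 genes) and 0.102% to 0.190% in HCCLM3 with LX2 (41 genes).

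Set side by side, SLC5A3 and HSPA4L had opposite signs in the lines with no overlap between groups in either. Over all genes tested, 48% did not overlap in LX2 and 43.1% in HCCLM3. ATP1B1 and NFAT5 also had opposite signs, but ATP1B1 in HCCLM3 and NFAT5 in LX2 overlapped between groups. The change in LX2 minus the change in HCCLM3 was -4.13 (SE 0.18) for SLC5A3, -3.22 (SE 0.65) for NFAT5, -2.52 (SE 0.20) for ATP1B1, 0.72 (SE 0.13) for SGK1 and 1.45 (SE 0.12) for HSPA4L on the log2 scale. These are descriptions, since LX2 chose the genes. Over all 21959 genes in that fit, 20.7% had a difference that passed the test, 11.3% higher and 9.39% lower in LX2.

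By FPKM, which is per length, the 9 genes ran in LX2 alone from AKR1B1 down through ATP1B1, RANBP3L, SLC5A3, SLC6A6, SGK1, SLC6A12, HSPA4L and NFAT5, with no overlap between neighbours. In LX2 with HCCLM3 the order was ATP1B1, AKR1B1, SGK1, SLC6A6, HSPA4L, SLC5A3, NFAT5, RANBP3L and SLC6A12. AKR1B1 at 33.9 to 38.9 FPKM was then close to SGK1 at 30.7 to 31.3 FPKM. The tables of the lines were scaled separately, so levels are not compared across them.

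The other beta subunits and the small FXYD subunits, which tune the sodium pump, were looked at beside ATP1B1. Of these 8, 4 could be tested in LX2, of which FXYD5 rose and the other 3 did not pass, with a median of 0.36 on the log2 scale against 0.01 over all genes, of which 15.4% rose and 16.6% fell. ATP1B3, the beta subunit that can stand beside ATP1B1 in many cells, was 112 ± 38.9 FPKM in LX2 alone and 164 ± 50.6 FPKM with HCCLM3 (SD, n = 3), and its log2 fold change of 0.52 did not pass the test (edgeR quasi-likelihood test, adjusted p = 0.237). ATP1B1 was thus the higher of these beta subunits in LX2 alone and the lower in LX2 with HCCLM3. FXYD5, also called dysadherin, rose from 20.9 ± 1.22 FPKM to 24.6 ± 1.24 FPKM in LX2 (log2 fold change 0.20, adjusted p = 0.0450, edgeR). That call was lost when any replicate of LX2 alone was left out, without LX2 with HCCLM3 replicate 2 or 3, without the filter (0.0720) and in the fit over 12 libraries (0.0623). In HCCLM3, 3 could be tested: FXYD3 rose from 0.776 ± 0.121 FPKM to 2.03 ± 0.167 FPKM (log2 fold change 1.20, adjusted p = 0.00453, edgeR), and ATP1B3 and FXYD5 did not pass. The fit over 12 libraries did not call FXYD3 there (adjusted p = 0.155).

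**Figure D4:**
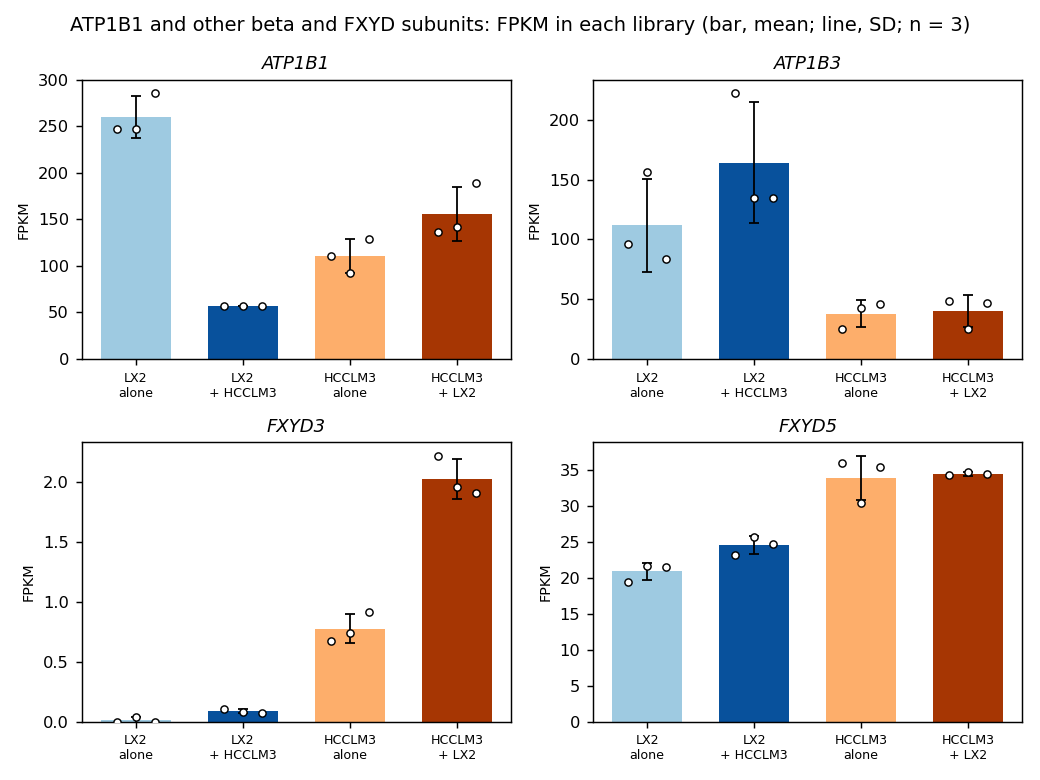
FPKM of ATP1B1, ATP1B3, FXYD3 and FXYD5 by group, on linear axes from 0; bars are means, lines SD, points the 3 libraries. ATP1B1 sits at 56.5 to 57.1 FPKM in LX2 with HCCLM3, and ATP1B3 varies widely within each LX2 group.

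Among 21 genes of osmolyte synthesis, breakdown and other carriers, 18 could be tested in each line. In LX2, 2 rose, 7 fell and 9 did not pass, with a median of -0.08, beside 15.4% up and 16.6% down among all genes tested. This list and the other wider lists were chosen with earlier results of these data known, so their counts are descriptions. SLC38A2, an amino acid carrier also raised by concentrated medium, fell from 150.4 ± 3.54 FPKM to 93.5 ± 1.68 FPKM (log2 fold change -0.71; edgeR quasi-likelihood test, adjusted p = 9.05e-06), and PNPLA6, which breaks down phosphatidylcholine to the osmolyte glycerophosphocholine, fell from 10.7 ± 0.307 FPKM to 6.95 ± 0.0338 FPKM (-0.65, adjusted p = 6.51e-05). IMPA2, an inositol monophosphatase, fell from 15.3 ± 0.321 FPKM to 6.65 ± 1.03 FPKM (-1.23, adjusted p = 0.000352), and SLC2A13, a proton and inositol carrier, fell by 0.66 (adjusted p = 0.000192). In HCCLM3, CSAD rose and SLC5A11, PNPLA6 and SLC6A20 fell, with a median of 0.02 against 0.03 over all genes, of which 10.1% rose and 11.6% fell. SLC5A11, a second inositol cotransporter, fell from 14.04 ± 0.763 FPKM to 8.29 ± 0.319 FPKM in HCCLM3 (-0.93, adjusted p = 0.00142, edgeR). Without HCCLM3 with LX2 replicate 3, 2 of these genes passed and both fell. PNPLA6 was one that did not pass (adjusted p from 0.0514 to 0.0585 over that and 2 other settings, library totals and limma). The fall of SLC6A20 was not called in the fit over 12 libraries (adjusted p = 0.115, edgeR).

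**Figure D5:**
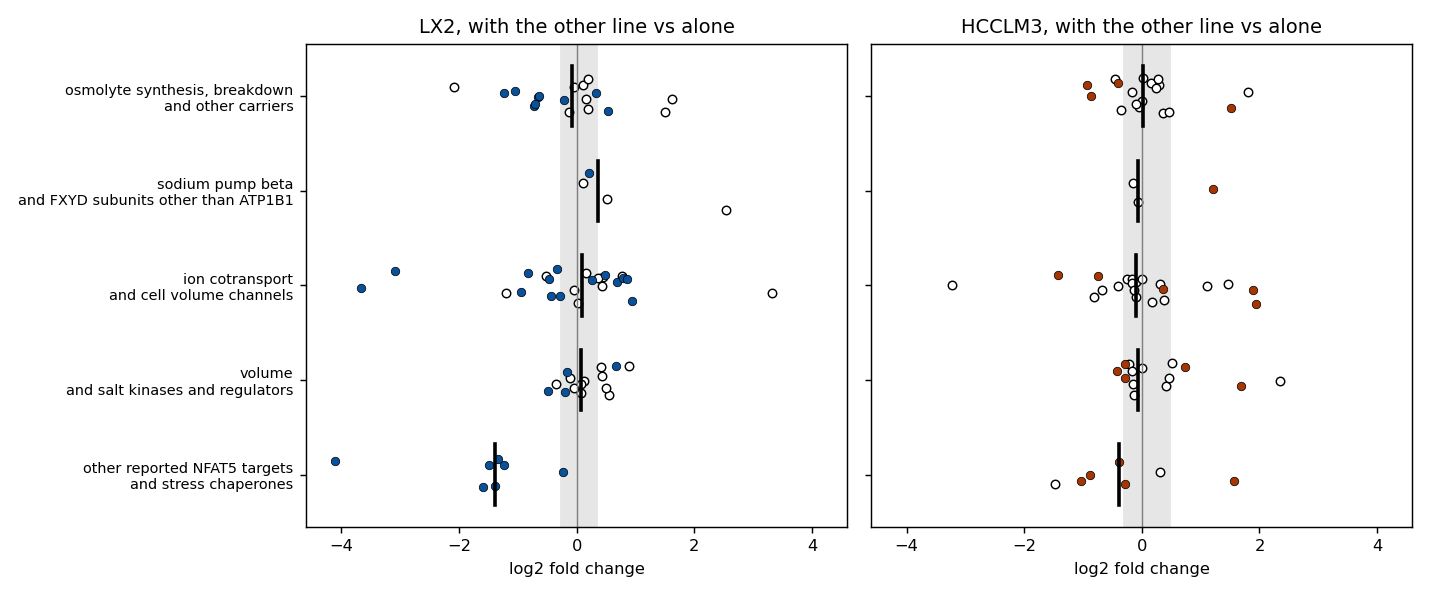
Log2 fold change of the genes tested in each of 5 wider lists, in LX2 and in HCCLM3; filled points passed the test, black bars are list medians and the grey band spans the quartiles of all genes tested. The list of other reported NFAT5 targets and stress chaperones lies below 0 throughout in LX2, with a median of -1.39, and the other 4 lists have medians of -0.08 to 0.36 there.

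Of 10 other reported NFAT5 targets and stress chaperones, 7 could be tested in LX2, and all 7 fell. Their median was -1.39 against 0.01 for all genes, of which 16.6% fell. The list was chosen with earlier results of these data known, so its count is a description and nothing is read from it. All 7 fell under every alternative run, except that 6 did in the fit over 12 libraries. HSPH1, of the same HSP110 family as HSPA4L, fell from 51.3 ± 0.309 FPKM to 20.6 ± 0.0843 FPKM (log2 fold change -1.34; edgeR quasi-likelihood test, adjusted p = 4.30e-07), and HSPA4, its near relative, fell by 0.23 (adjusted p = 0.000988), while HSPA4L was higher by 0.12 in LX2. S100A4, a calcium-binding protein, fell by 1.39 (753 ± 7.87 to 293 ± 5.98 FPKM, adjusted p = 6.43e-07), and PTGS2, the inducible cyclooxygenase, fell by 1.59 (23.0 ± 0.652 to 7.78 ± 0.00828 FPKM, adjusted p = 1.62e-06). HSPA1A and HSPA1B, which share nearly all their sequence, so that the split of their reads is uncertain, fell by 1.49 and 1.24. CCL2, named after its values were seen, had 74 to 104 counts in LX2 alone and 4 to 8 with HCCLM3. In HCCLM3, HSPA4, HSPH1, HSPA1A and HSPA1B fell, as HSPA4L did, and PTGS2 rose from 1.14 ± 0.219 FPKM to 3.78 ± 0.378 FPKM (1.57, adjusted p = 0.00178, edgeR). The difference between the lines was tested for PTGS2 (-3.13, adjusted p = 6.80e-07).

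Among 32 ion cotransporters and cell volume channels, 24 could be tested in LX2, of which 6 rose and 8 fell (median 0.09), and among 21 in HCCLM3, 3 rose and 2 fell (median -0.09). Over all genes tested, 15.4% rose and 16.6% fell in LX2, and 10.1% and 11.6% in HCCLM3. The fit over 12 libraries called 6 of these genes in LX2, 1 up and 5 down, and 10 in HCCLM3, while 2 were called in HCCLM3 without HCCLM3 with LX2 replicate 2 or 3 and 3 without HCCLM3 alone replicate 1 or without the filter. SLC12A2, which brings sodium, potassium and chloride into the cell and is a volume regulator, fell from 8.04 ± 0.095 FPKM to 4.24 ± 0.127 FPKM in LX2 (log2 fold change -0.95, edgeR quasi-likelihood test, adjusted p = 1.32e-05), and SLC12A4, which moves potassium and chloride out, rose by 0.68 (adjusted p = 8.61e-05). AQP3 fell in both lines, by 0.84 in LX2 (adjusted p = 8.12e-05, edgeR) and by 0.75 in HCCLM3 (adjusted p = 0.00493, edgeR). SCNN1A, the alpha subunit of the epithelial sodium channel on which SGK1 acts, rose in HCCLM3 from 1.58 ± 0.277 FPKM to 6.80 ± 0.38 FPKM (1.93, adjusted p = 0.000637, edgeR), and was near 0 in LX2. ANO6 fell by 0.29 in LX2, and its rise of 0.35 in HCCLM3 (adjusted p = 0.0322) was lost when 5 of the 6 libraries were left out in turn, HCCLM3 alone replicate 2 being the exception (0.0535 to 0.101 over these and the unfiltered fit).

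Of 15 kinases and regulators of volume and salt, 15 were tested in LX2: NEDD4L rose and OXSR1, TSC22D4 and RANBP3 fell, with a median of 0.08, beside 15.4% of all genes up and 16.6% down. The fit over 12 libraries called 2, 1 in each direction. NEDD4L, the ligase that SGK1 acts on, rose from 1.84 to 2.99 FPKM (log2 fold change 0.67; edgeR quasi-likelihood test, adjusted p = 4.45e-05). RANBP3, the relative of RANBP3L, fell by only 0.20 on the log2 scale (adjusted p = 0.0278), and the call was lost in 7 of the alternatives, among them leaving out LX2 alone replicate 1 or 3, or LX2 with HCCLM3 replicate 2 or 3 (0.0544 to 0.113). In HCCLM3, WNK1, a kinase that senses chloride and steers sodium and chloride cotransport, rose from 3.86 ± 0.943 FPKM to 13.9 ± 1.07 FPKM (1.69, adjusted p = 0.00162, edgeR), and TSC22D3 rose by 0.73 (adjusted p = 0.00891), while SGK2, STK39 and CUL3 fell, 5 calls among 14 tested (median -0.06) beside 10.1% of all genes up and 11.6% down. Of these calls 3 were made when any library other than HCCLM3 alone replicate 2 was left out, each time 2 up and 1 down, and 3 without the filter; limma on FPKM also made 3, all up, and CUL3 was lost there (adjusted p = 0.0651).

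The genes whose values over the 6 LX2 libraries ran closest to those of AKR1B1, by Euclidean distance of centred log2 scaled counts among 12063 genes of at least 1 FPKM in LX2 alone, were AC148477, ETNPPL and FRMD3, at distances of 0.261, 0.321 and 0.518. ETNPPL went from 5.96 to 0.324 FPKM and FRMD3 from 6.76 to 0.438 FPKM, and AC148477 from 112 counts over the group to 0. The place of AC148477 is set by the prior count of 2 added before the log, since it had no counts in LX2 with HCCLM3, so its likeness to AKR1B1 is not a measured one. Closest to RANBP3L were PLCXD3, DPT and LRRK2, at distances of 2.61, 3.54 and 4.10. None of these 3 for either gene was among the 3 chosen by Pearson correlation instead, so the neighbours depend on the measure.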

How the data were processed

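Polyadenylated RNA of 12 libraries was sequenced as read pairs, per the labels' protocols. The authors deposited, for each line, raw read counts and FPKM (fragments scaled by gene length and library size) per gene, per the file headers; HISAT2 2.0, StringTie 1.3.0 and Bowtie 0.12.2 and the build mm8, a mouse build although the gene IDs are human, are named in the submitters' processing notes, and no source used here states the strand setting. Gene positions are those of the deposited tables; 58394 of 60612 IDs are in GENCODE 29. Samples were grouped by line and treatment label.

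From the counts, edgeR 4.0.16 (R 4.3.3) fitted each line separately, with TMM scaling, filterByExpr (minimum count 10, minimum total 15) and the quasi-likelihood test, adjusted by Benjamini-Hochberg over all genes tested; the difference between the lines was a contrast over 12 libraries. Standard errors are the log2 fold change divided by the square root of F. FPKM served for levels, as mean ± SD (n = 3). A value of 0.0001 FPKM at 0 counts was read as 0. Counting error and the spread between libraries limit all values.

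Alternatives were DESeq2 1.42.0 and its size factors, library totals, limma 3.58.1 on log2(FPKM + 1), no filter, a minimum count of 50, a fit over 12 libraries, a replicate block and leaving out each library. On simulated counts the fit recovered 80.3% of 4-fold, 53.7% of 2-fold and 19.4% of 1.5-fold changes in LX2 (19671 genes). In HCCLM3 (18045 genes) it recovered 83.3%, 38.8% and 4.48%. Of the calls, 7.27% in LX2 and 5.62% in HCCLM3 were false. The simulation changed 66 genes by 4-fold, 67 by 2-fold and 67 by 1.5-fold in each line, all with mean counts above 50. In the data 31.9% of genes passed in LX2 and 21.7% in HCCLM3, so these rates need not carry over.

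The genes and the 5 wider lists (86 genes) were chosen with earlier results of these data known. Counts of calls in every list are thus descriptions, and nothing is read from them. From each wider list the text names up to 4 genes by smallest p in LX2 and up to 3 in HCCLM3, at a mean of at least 1 FPKM, with pump subunits at that level and genes overlapping a member; other genes in a list are named after their values were seen. Some genes of the pump list are not reported here.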

Additional observations from a re-analysis of the deposited data

Results flagged for a closer look

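SLC5A3 and HSPA4L had opposite signs in the lines, with no overlap between groups in either line. Over all genes tested, 48% did not overlap in LX2 and 43.1% in HCCLM3. The share not overlapping in opposite directions was not counted, so nothing is read from this pattern. The HSPA4L step in LX2 was small (log2 fold change 0.12). The SLC5A3 call in HCCLM3 was lost when certain single libraries were left out. The change in LX2 minus the change in HCCLM3 was -4.13 for SLC5A3 and 1.45 for HSPA4L on the log2 scale, and the difference was not tested, because these genes were chosen on LX2.

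Over the wider lists, 23 of 74 genes tested for a difference between the lines passed the edgeR quasi-likelihood test, beside 20.7% of all 21959 genes. Among the 27 of them named by rule, 17 passed. The rule took genes mostly by smallest p within a line, from the same libraries as the difference, so nothing is read from this share. These 17 are given as the change in LX2 minus the change in HCCLM3 on the log2 scale. Among osmolyte carriers and enzymes it was -0.96 for SLC38A2 (adjusted p = 0.00176), -0.91 for SLC2A13 (0.00176), -1.23 for IMPA2 (0.000852) and 2.56 for SLC5A11 (0.0018). SLC5A11 was near the floor in LX2, at 0.021 FPKM alone and 0.074 FPKM with HCCLM3. Its LX2 change of 1.61 did not pass the edgeR test (0.112), but passed in the fit over 12 libraries (0.0123) and without LX2 alone replicate 3 (0.0268). For the pump subunit FXYD5 the difference between the lines was 0.38 (0.0319). Among cotransporters and channels it was -1.10 for SLC12A2 (0.000471), 0.97 for SLC12A4 (0.000188), -0.27 for SLC4A2 (0.0147), -1.74 for SCNN1A (0.00199) and -0.61 for ANO6 (0.000974). Among kinases and regulators it was 0.92 for NEDD4L (1.58e-05), -1.25 for WNK1 (0.0194) and 0.34 for CUL3 (0.0115). Among other NFAT5 targets and chaperones it was -1.66 for S100A4 (6.16e-06), -1.07 for HSPA1A (1.31e-06), -3.13 for PTGS2 (6.80e-07) and 0.69 for HSPA4 (3.75e-05).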

How the results depend on the processing

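In LX2, 6281 genes passed the threshold, 3746 in the fit over 12 libraries, and 4934 to 5209 when each library was left out. In HCCLM3, 3924 passed, and 1918 to 2928 when each library was left out, the fewest without HCCLM3 with LX2 replicate 3; 2574 passed without HCCLM3 alone replicate 3, and 2264 and 2522 without HCCLM3 with LX2 replicates 1 and 2. For the difference between the lines, 4546 passed (2483 higher in LX2, 2063 lower), and 3580 to 4438 with a library left out; with library totals it was 1588 higher and 2989 lower, and with limma on FPKM 2327 and 3787. With limma on FPKM in HCCLM3, 3104 rose and 1106 fell.

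Libraries of the same number did not deviate together (correlations of -0.039, 0.011 and -0.041 in LX2 and 0.017, 0.045 and 0.023 in HCCLM3), so the numbers were not taken to pair them, although each HCCLM3 library correlated best with its own number, a hint from the data. With the replicate block, 4795 genes passed in LX2, 3315 in HCCLM3 and 4439 for the difference. The call of SGK1 in HCCLM3 was not made with the block (adjusted p = 0.0517, edgeR), nor were those of RANBP3 and AC012321 in LX2.

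No called value of the 9 genes or the other named genes changed sign under any alternative. In LX2, 118 of the members' values moved by less than the spread and 8 moved more: SLC5A3 to -3.40 in the fit over 12 libraries and with library totals and to -3.06 with limma, SLC6A12 to -3.49 and RANBP3L to -5.23 with limma, whose pseudocount of 1 shrinks low levels, and SLC6A6 to between 0.03 and 0.04 in 3 settings. In HCCLM3, 89 kept their side and 9 lost it, all of SLC5A3 and SGK1.
Low levels limit what can be seen of SLC6A12 and RANBP3L in LX2 with HCCLM3, which rest on 12 to 61 counts per library.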
